A study of Mus musculus with 6 samples.

Results

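The transcription factors that turn myelination of peripheral nerve on or hold it back were followed in sham-operated mouse sciatic nerve. The 10 genes were taken by symbol from the deposited transcript tables: Sox10, Pou3f1, Egr2, Nab1, Nab2, Yy1, Zeb2, Sox2, Id2 and Olig1, out of 54309 genes in all. The groups were female sham and male sham C57BL/6J mice (strain label C57BL/6), 6 to 8 weeks old, in which the left sciatic nerve was exposed under isoflurane but not transected and was collected 24 h later. Every sample was a pool of 2 mice, with 3 pools of each sex, so each pool came from separate animals, and both sexes had the same sham surgery and anesthesia. There was no unoperated nerve among the samples, and axotomized nerves were not analysed here.

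Myelin in peripheral nerve is made by Schwann cells, and a chain of transcription factors controls it. SOX10 marks the lineage and, with POU3F1 (also called OCT6), switches on EGR2 (KROX20), which together with SOX10 keeps the genes of the myelin sheath active and works with the co-regulators NAB1 and NAB2. SOX2 and ID2 are typical of immature or dedifferentiated Schwann cells and oppose the myelinating state, while ZEB2 represses such inhibitors and YY1 takes part in the activation of Egr2.

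All 10 genes lie on autosomes, and the annotation used for positions (GENCODE M39, GRCm39) held all 58 of their transcripts. Egr2 lies at chr10:67371305-67378018 on the plus strand, Sox10 at chr15:79039108-79049469 on the minus strand, Pou3f1 at chr4:124550600-124554448 on the plus strand and Zeb2 at chr2:44873644-45007464 on the minus strand. Yy1 lies at chr12:108758842-108786074 (plus), Nab1 at chr1:52494147-52539838 (minus), Nab2 at chr10:127496786-127504458 (minus), Sox2 at chr3:34704554-34706610 (plus), Id2 at chr12:25143798-25147282 (minus) and Olig1 at chr16:91066660-91068821 (plus).

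Promoter windows of 300 bases (250 before to 50 after a gene start, RefSeq, GRCm38.p6) were given for 7 of the 10 genes in 14 windows, and all 14 were found once in GRCm39. Sox10, Pou3f1 and Olig1 had none. The Egr2 stretch shown, from 120 to 8 bases before the RefSeq start that lies within 50 bases of the leading transcript Egr2-201, was chosen because Egr2 was among the most variable of the factors between pools. Annotated exons, of any gene on either strand, cover 150 of the 250 bases before that RefSeq start. The stretch lies at chr10:67373579-67373691 on the plus strand, upstream of the first exon of Egr2-201. Its capitals mark a CArG box, the site class read by serum response factor, and 2 CRE cores (TGACG on either strand), the letters at the heart of sites read by CREB family proteins; none of these matches overlap each other.
Egr2 promoter stretch: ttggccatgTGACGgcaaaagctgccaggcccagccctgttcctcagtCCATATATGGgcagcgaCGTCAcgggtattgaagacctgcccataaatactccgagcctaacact

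A CArG box was present in 1.63% of all 32851 RefSeq promoter windows and TGACG in 20.8%. Among the 7 factors with windows, Egr2 had a CArG box, and Egr2, Nab1 and Zeb2 had TGACG. Counted by window, these were 4 and 6 of the 14. Some windows of Egr2 and of Zeb2 overlap and hold the same match, so windows are not independent. The letters of 2 classical EGR sites, GCGTGGGCG and GCGGGGGCG, searched on both strands, were in 0.612% and 2.91% of all windows. Nab1, a partner of EGR proteins, was the only one of the 7 factors to hold either. Its 3 matches, 141, 109 and 38 bases before the RefSeq start, are shown with the site in capitals and 10 bases on each side, on the strand of the gene. They lie within the Nab1 locus, in bases covered by annotated exons of any gene on either strand. Their positions are chr1:52539730-52539758, chr1:52539698-52539726 and chr1:52539627-52539655 on the minus strand. The first is written as the reverse complement of GCGTGGGCG.
Nab1 site -141: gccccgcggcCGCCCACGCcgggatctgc
Nab1 site -109: actcggccgcGCGTGGGCGggagccggag
Nab1 site -38: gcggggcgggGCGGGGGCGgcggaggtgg

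ACAAAG, a core bound by SOX proteins, was found in a window of Sox2 and in one of Zeb2, against 18.7% of all windows, and CACCTG, an E-box bound by ZEB proteins, was in no window of these factors, against 20.2% of all. The windows of Nab1, Nab2, Sox2 and Yy1 had no annotated transcript start of their gene within 50 bases of the RefSeq start. That of Id2 lay at the start of Id2-203, which made up 4.67% of Id2 TPM on average. These windows therefore need not cover the promoters of the leading transcripts. All of these are letter matches in the windows given and were not tied to binding in these nerves.

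The pools held 55949876 to 78473057 estimated read pairs each. Of all genes, 16310 passed the filter on low counts (3 or more pools at 0.5 CPM or above, CPM being a count scaled to the library total) and were tested between the sexes with edgeR's quasi-likelihood test, which called 10 genes (0.0613%) at an adjusted p under 0.1. Schwann cell markers fitted the tissue label: Pmp22, a protein of compact myelin, was at 10218 to 12291 TPM and S100b at 235.4 to 289.8 TPM. Olig2, a factor of the oligodendrocyte lineage, had no read pair in any pool. Female pool 2 stood apart by its skeletal muscle markers, whose summed level was 3814 TPM there and 20.1 to 287 TPM in the other 5 pools. In bulk nerve, fewer cells of a type and less RNA per cell cannot be told apart.

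Sox10 had the highest level of the 10 factors. Its level per length, in TPM (reads per base of transcript, scaled to the same total in every pool), was followed by Zeb2, Id2, Egr2, Nab1, Nab2, Yy1, Pou3f1, Sox2 and Olig1 in that order. Neighbours in this order did not overlap over the 6 pools except for Id2 and Egr2 (Id2 higher in 5 of 6 pools), Egr2 and Nab1 (Egr2 higher in 2 of 6 pools) and Pou3f1 and Sox2 (Pou3f1 higher in 4 of 6 pools). The step from Yy1 to Pou3f1 was 6.83-fold in mean TPM, and that from Sox2 to Olig1 was 99.0-fold. Pou3f1, which acts early in the promyelinating program, and the inhibitor Sox2 formed a low pair between these steps. By TPM, 7 of the 9 factors tested lay above the median of the genes tested (15.1 TPM), and Sox10 and Zeb2 were at the 92.7 and 90.6 percentiles. Pou3f1 and Sox2 were at the 26.9 and 25.4 percentiles.

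**Figure D1:**
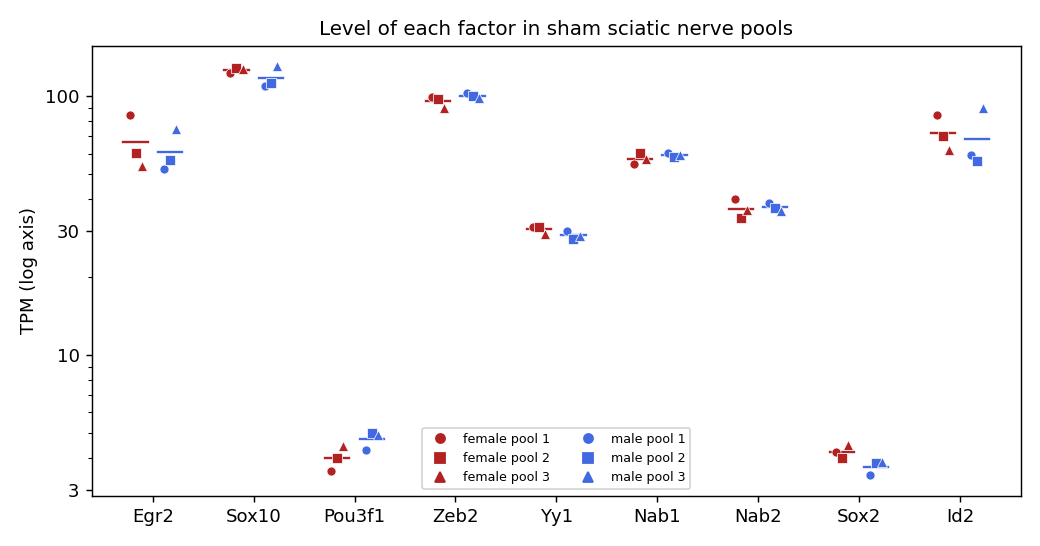
TPM of 9 factors on a log axis in each of 3 female pools (red, left) and 3 male pools (blue, right), with a line at the mean of each sex; Olig1, near 0, is left out. Sox10 and Zeb2 sit at 90.2 to 131 TPM, Pou3f1 and Sox2 at 3.42 to 5.003 TPM, and Egr2 and Id2 spread the most between pools.

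Sox10, the lineage factor that is needed at every stage of Schwann cell development, was at 123, 128 and 127 TPM in female pools, against 110, 113 and 131 TPM in male pools. Male pool 3 was the highest of all pools and male pools 1 and 2 the lowest, so the sexes overlapped. Females over males, its log2 fold change was 0.17 ± 0.10 (SE, n = 3 pools each), with an adjusted p of 0.85 in edgeR's quasi-likelihood test. Without male pool 3 it was 0.31 and without male pool 1 it was 0.099, with adjusted p of 0.46 and 0.93 in the same test, and effective length offsets gave 0.090.

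Pou3f1, which acts early in the promyelinating program and is then turned down as myelin forms, was at 3.55, 4.00 and 4.44 TPM in female pools, against 4.30, 5.003 and 4.89 TPM in male pools. Female pools 1 and 2 were the lowest, but female pool 3 lay above male pool 1. Its log2 fold change was -0.15 ± 0.14 (SE, n = 3 pools each; adjusted p = 0.89, edgeR). It was -0.28 without male pool 1, -0.051 without male pool 3, -0.25 with effective length offsets and -0.045 in limma-voom. With 334 to 496 read pairs per pool, counting error alone was up to 5.47% of its value.

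Egr2, the zinc finger factor without which Schwann cells do not myelinate, was at 84.8, 60.2 and 53.8 TPM in female pools, against 52.3, 56.6 and 74.5 TPM in male pools. Female pool 1 and male pool 3 were high, the other 4 pools lay between 52.3 and 60.2 TPM, and the sexes overlapped. The log2 fold change was 0.13 ± 0.21 (SE, n = 3 pools each; adjusted p = 0.94, edgeR). It was -0.081 without female pool 1 and 0.33 without male pool 3. Counting error was at most 1.26% for Egr2, against a 1.62-fold range between pools.

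Nab1, a co-regulator that binds EGR proteins, was at 54.6, 60.5 and 57.2 TPM in female pools, against 60.6, 58.3 and 59.5 TPM in male pools. Nab2, its paralog and partner in the same role, was at 39.9, 33.8 and 36.5 TPM in female pools, against 38.6, 37.1 and 35.9 TPM in male pools. Both overlapped between the sexes, and Nab1 was higher than Nab2 in every pool. The log2 fold change was -0.070 ± 0.061 for Nab1 (adjusted p = 0.88) and 0.037 ± 0.074 for Nab2 (adjusted p = 0.95; edgeR's quasi-likelihood test, SE, n = 3 pools each). For Nab2 the direction depended on the scale, since effective length offsets gave -0.023. Nab2 overlaps Stat6 on the opposite strand, which was at 89.1 to 97.1 TPM; the libraries were stranded, but the strand setting of the quantification is not given in the sources used here.

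Yy1, a zinc finger protein with activating and repressing roles in most cells, was at 31.1, 31.3 and 29.5 TPM in female pools, against 30.1, 28.0 and 28.9 TPM in male pools. Female pool 3 lay within the range of the male pools. For Yy1 the log2 fold change was -0.019 ± 0.066 (SE, n = 3 pools each; adjusted p = 0.97, edgeR), and with effective length offsets it was 0.071.

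Zeb2, a zinc finger repressor needed for Schwann cells to leave the immature state, was at 99.5, 97.6 and 90.2 TPM in female pools, against 103, 101 and 98.6 TPM in male pools. In TPM, female pool 1 lay above male pool 3. In CPM scaled by TMM factors, the scale of the test, Zeb2 was at 284, 299 and 305 in females and 329, 350 and 328 in males, with no overlap. Its log2 fold change of -0.18 ± 0.065 (SE, n = 3 pools each) had the smallest p of the 9 factors tested, 0.024 unadjusted and 0.76 adjusted in edgeR's quasi-likelihood test, and it did not pass the threshold. With the effective transcript lengths as offsets the log2 fold change was -0.081 and the unadjusted p was 0.22 in the edgeR fit. The effective length of Zeb2, weighted over its transcripts, was 4467, 4841 and 5137 bases in females and 5077, 5466 and 5042 bases in males, and was shortest in female pool 1.

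Zeb2 is also transcribed in macrophages, and the 14 macrophage markers had a lower summed level in females (4053 to 4222 TPM) than in males (4619 to 5889 TPM). Of the 14, 11 had a negative log2 fold change, 8 had an unadjusted p under 0.05, which 6.11% of all genes had, and none passed the adjusted threshold in edgeR's quasi-likelihood test. Lyz2 was at 2027, 2055 and 2054 TPM in female pools, against 2305, 3403 and 2779.9 TPM in male pools, and C1qb was at 355, 312 and 392 TPM in female pools, against 394, 455 and 437 TPM in male pools. None of the markers was at 0. Their part in the Zeb2 values was not tested. Zeb2os, a noncoding gene on the opposite strand, overlaps Zeb2 and was at 14.04 to 20.98 TPM.

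Sox2, a factor of immature and repair Schwann cells that holds back myelination, was at 4.19, 3.98 and 4.46 TPM in female pools, against 3.42, 3.82 and 3.84 TPM in male pools. Every female pool lay above every male pool, with female pool 2 and male pool 3 the closest. The log2 fold change was 0.24 ± 0.13 (SE, n = 3 pools each), with an unadjusted p of 0.098 and an adjusted p of 0.84 in edgeR's quasi-likelihood test. The difference rests on 227 to 308 read pairs per pool, and counting error was up to 6.64%. Sox2 overlaps the noncoding gene Sox2ot on the same strand, which was at 19.2 to 24.4 TPM, and how the quantification divides reads between them was not tested. White adipocyte markers had a positive log2 fold change for 9 of 9, with 0 called in edgeR's quasi-likelihood test (0.0613% of all genes tested). In the same test 2 of the 9 had an unadjusted p under 0.05, which 6.11% of all genes had. Their summed levels were 981 to 1866 TPM in female pools, against 913 to 989 TPM in male pools. Female pool 1, at 981 TPM, lay within the male range. Fabp4 was at 442 to 874 TPM in female pools, against 382 to 428 TPM in male pools, none of the 9 was at 0, and their part in the Sox2 values was not tested.

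Id2, which binds basic helix-loop-helix factors and keeps them from DNA, was at 84.9, 70.3 and 62.1 TPM in female pools, against 59.0, 56.1 and 89.8 TPM in male pools. Male pool 3 and female pool 1 were the highest and male pools 1 and 2 the lowest. Between the sexes the log2 fold change of Id2 was 0.044 ± 0.20 (SE, n = 3 pools each; adjusted p = 0.98, edgeR). Its direction turned when female pool 1, male pool 1 or male pool 2 was left out (-0.080, -0.064 and -0.067).

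Olig1, a basic helix-loop-helix factor best known from oligodendrocytes, was close to absent. It had 2, 2 and 2 read pairs in females and 0, 6 and 3 in males, 15 in all (exact Poisson 95% interval 8.40 to 24.7), and was not tested. The 0 in male pool 1 allows up to 0.0382 CPM at a limit of 3 counts. Intervals of this kind cover counting error only.

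None of the 9 factors tested was called between the sexes by edgeR's quasi-likelihood test (0.0613% of all genes were), by DESeq2 (0.975%) or by limma-voom (0.159%). At an unadjusted p under 0.05 there was 1 factor in edgeR (Zeb2; 6.11% of all genes), 1 in DESeq2 (6.32% of all genes) and 2 in limma-voom (Zeb2 and Sox10; 15.5% of all genes). Female and male pools did not overlap in TMM-scaled CPM for 2 of the 9 factors, Sox2 and Zeb2, against 11.2% of all genes tested. The median log2 fold change was 0.037 over the 9 factors and 0.0016 over all genes tested. The lowest adjusted p of any factor over 15 fits was 0.21, for Sox10 in limma-voom. Without female pool 2, the pool with skeletal muscle transcripts, 0 of the 9 were called by edgeR, and the log2 fold changes of Sox2 and Zeb2 were 0.29 and -0.19.

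**Figure D2:**
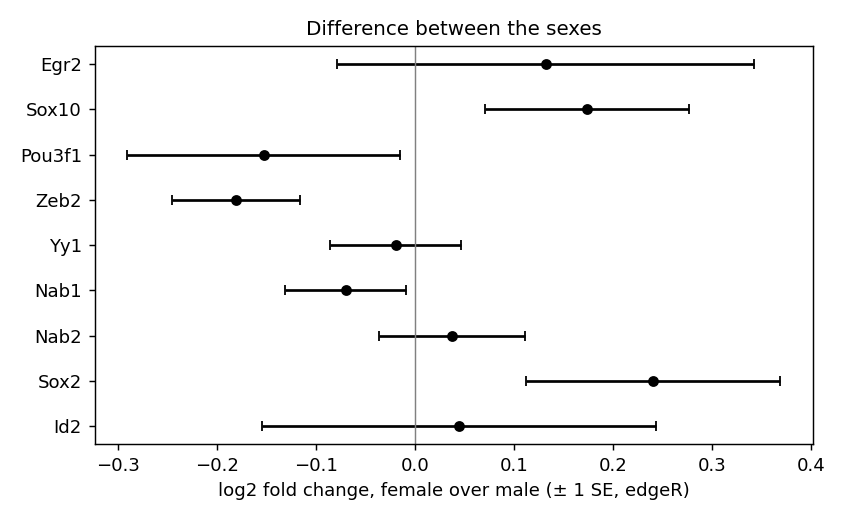
Log2 fold change of females over males for 9 factors (points) with 1 SE on each side (bars), from edgeR's fit of all 6 pools. The values run from -0.18 for Zeb2 to 0.24 for Sox2, and none passed an adjusted p of 0.1.

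Egr2 and Id2, which stand on opposite sides of the myelinating program, were the factors that varied most between pools. The SD of log2 CPM over the 6 pools was 0.29 for Egr2 and 0.27 for Id2, at the 92.4 and 90.8 percentiles of all genes tested, whose median was 0.12. Nab1, Yy1 and Nab2 were steady, at the 13.8, 17.3 and 29.2 percentiles. Both variable factors were high in female pool 1 and male pool 3, so their ratio moved less than either gene: Egr2 over Id2 was 0.999, 0.856 and 0.867 in females and 0.886, 1.01 and 0.830 in males. The SD of this log2 ratio over the pools was 0.12, against 0.28 for the log2 TPM of each gene.

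Immediate-early genes, which many stimuli raise within minutes, were high in the same pools. Fos was at 64.6, 36.2 and 36.6 TPM in female pools, against 32.3, 28.0 and 46.9 TPM in male pools. Junb was at 114, 85.7 and 79.8 TPM in female pools, against 90.3, 72.7 and 113 TPM in male pools. Egr1, a paralog of Egr2, was at 27.7, 16.5 and 12.2 TPM in female pools, against 17.9, 14.2 and 20.3 TPM in male pools. Female pool 1 and male pool 3 had the highest Fos, Junb and Egr1 of their sex, and the part of such a response in the Egr2 and Id2 values was not tested. Fos and Egr1 were singled out after their values were seen.

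**Figure D3:**
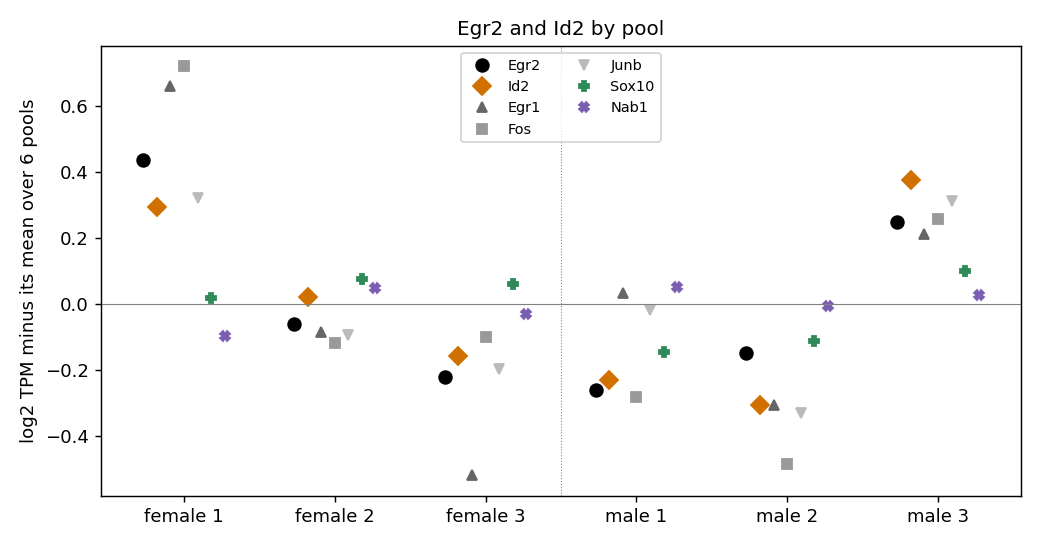
Log2 TPM of each gene minus its mean over the 6 pools, for female pools (left) and male pools (right); each point is 1 gene in 1 pool. Egr2, Id2, Egr1, Fos and Junb lie at 0.21 or above in female pool 1 and male pool 3, while Sox10 stays between -0.15 and 0.10 and Nab1 between -0.097 and 0.053.

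Over the 6 pools Egr2 and Id2 had Pearson's r = 0.92 (exact permutation p = 0.025, adjusted p = 0.15 over 6 pairs) and Spearman's rho = 0.77 (exact permutation p = 0.10, adjusted p = 0.31). Without female pool 1 and male pool 3, r was 0.72. Egr2 and its activator Sox10 had r = 0.69 (exact permutation p = 0.093, adjusted p = 0.21) and rho = 0.77 (exact permutation p = 0.10, adjusted p = 0.31), and r = 0.77 without the same 2 pools. Egr2 and Nab2 had r = 0.69 (exact permutation p = 0.11, adjusted p = 0.21) and rho = 0.49 (exact permutation p = 0.36, adjusted p = 0.71), but r turned to -0.83 without the same 2 pools, so the positive relation rested on them. Sox10 and Sox2 had r = 0.71 (exact permutation p = 0.14, adjusted p = 0.21) and rho = 0.20 (exact permutation p = 0.71, adjusted p = 0.71), which turned to r = -0.90 without male pools 1 and 2.

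Egr2 and Pou3f1 had r = 0.13 (exact permutation p = 0.81, adjusted p = 0.81) and rho = 0.26 (exact permutation p = 0.66, adjusted p = 0.71), with r = 0.48 without female pool 1 and male pool 3. Egr2 and Sox2 had r = 0.42 (exact permutation p = 0.40, adjusted p = 0.48) and rho = 0.26 (exact permutation p = 0.66, adjusted p = 0.71), with r = 0.59 without the same 2 pools. No pair passed an adjusted p of 0.1. With 3 pools of a sex, fewer than 6, no correlation was computed within a sex.

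The genes whose TMM-scaled CPM followed Egr2 most closely over the 6 pools were Rps16 (r = 0.997), Cass4 (r = 0.996) and Ydjc (r = 0.994), and those closest to Sox2 were H2bc4 (r = 0.977), Pdlim2 (r = 0.976) and Gm44421 (r = 0.967). Id2, added after its values were seen, was followed most closely by Nfkbia (r = 0.999), which was at 163, 131 and 123 TPM in female pools, against 119, 116 and 181 TPM in male pools. These are the highest of 16310 genes over 6 points, given as a description. Id2 ranked 217 in likeness to Egr2.

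The balance of promyelinating over antimyelinating factors was taken as the ratio of their TPM in each pool, which does not depend on depth. Other pairs were treated the same way: a late over an early factor, Egr2 over its activator, and the co-regulators over each other and over Egr2. Of 9 ratios, only that of Zeb2 to Sox2 did not overlap between the sexes. It was 23.7, 24.5 and 20.2 in females and 30.1, 26.3 and 25.7 in males. The mean log2 difference of females minus males was -0.26, with a two-sided exact permutation p of 0.1, the smallest that 3 pools against 3 can give. In TMM-scaled CPM the same difference was -0.42. Sox2 and Zeb2 were also the factors without overlap in TMM-scaled CPM, so this ratio is not a separate result. How often ratios of other gene pairs do not overlap was not computed. Macrophages also transcribe Zeb2, and their part in this ratio was not tested. Without female pool 2, 3 ratios did not overlap, with Sox10 over Sox2 and Nab2 over Nab1 added, and without female pool 1 there were 2.

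Egr2 over Sox2 was 20.2, 15.1 and 12.1 in females and 15.3, 14.8 and 19.4 in males, and Sox10 over Sox2 was 29.4, 32.2 and 28.5 in females and 32.2, 29.5 and 34.0 in males. Both overlapped, as did the ratio of Egr2 to its activator Sox10 (0.688, 0.469 and 0.423 in females, 0.476, 0.502 and 0.570 in males). Egr2 over Pou3f1, a late over an early factor, had the widest range of the 9 ratios, with 23.9, 15.1 and 12.1 in females and 12.2, 11.3 and 15.2 in males. The 8 overlapping ratios had two-sided exact permutation p-values of 0.3 to 1.

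The co-regulators kept a narrower ratio to each other than to Egr2. Nab2 over Nab1 ran from 0.559 to 0.731 over the 6 pools, a 1.31-fold range, whereas Nab1 over Egr2 ran from 0.644 to 1.16 (1.80-fold) and Nab2 over Egr2 from 0.471 to 0.737 (1.57-fold). Nab1 over Egr2 was lowest in female pool 1 and male pool 3, the pools with the most Egr2.

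**Figure D4:**
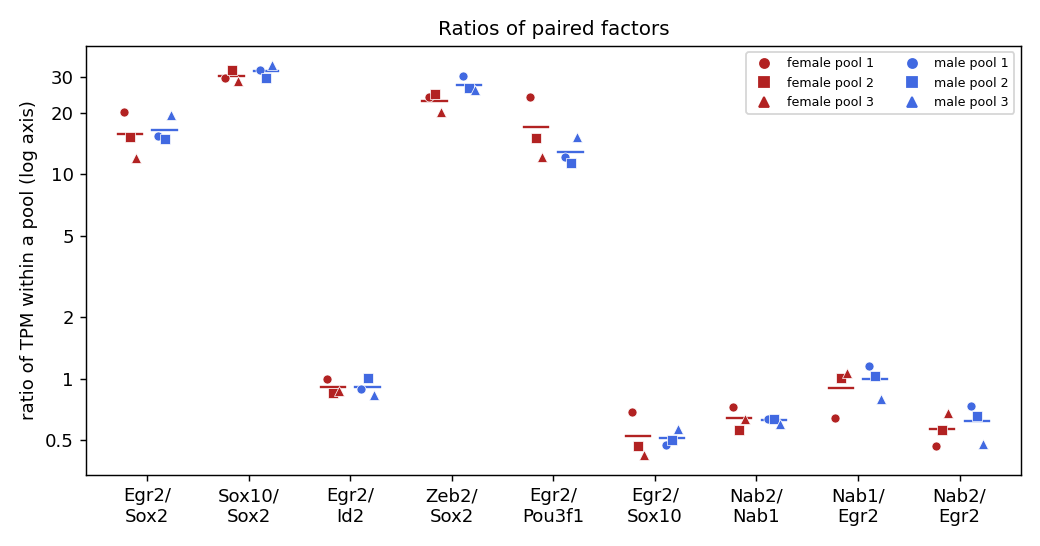
Ratio of the TPM of 2 factors within a pool, on a log axis, for 9 pairs in female pools (red, left) and male pools (blue, right), with a line at the mean of each sex. Zeb2 over Sox2 is at 20.2 to 24.5 in females and 25.7 to 30.1 in males, without overlap, and the other 8 ratios overlap.

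At the level of transcripts, Egr2 was led by Egr2-201, a form of 2 exons coding for a protein of 470 codons with its stop codon left out of the count. Egr2-201 made up 88.9%, 88.3% and 87.5% of Egr2 TPM in female pools, against 86.8%, 85.9% and 83.4% in males. All female pools were above all male pools, by 2.90 percentage points on average (two-sided exact permutation p = 0.1, the smallest possible). Of the 7 factors with more than 1 transcript, Egr2 was the only one whose leading share did not overlap between the sexes, and 9.64% of 13215 genes with more than 1 detected transcript did not overlap either. Without female pool 3 or without male pool 2, 2 leading shares did not overlap.

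Next came Egr2-202, which made up 5.71%, 6.81% and 6.72% of Egr2 TPM in female pools, against 8.33%, 10.6% and 10.8% in males. In TPM, Egr2-202 overlapped between the sexes, with 4.85, 4.10 and 3.62 TPM in female pools, against 4.36, 6.02 and 8.06 TPM in male pools. Shares within a gene are not independent, and this one was looked at after the share of Egr2-201 was seen. Egr2-202 splices out 100 bases, chr10:67374011-67374110, that Egr2-201 keeps in its first exon, and the start codon of Egr2-201 lies in them. Its annotated coding sequence starts 50 codons further in and holds 420 codons. The coding part of the skipped stretch, chr10:67374051-67374110 on the plus strand of GRCm39, is shown because it tells the 2 forms apart, with the start codon of Egr2-201 in capitals.
Egr2-201 coding start: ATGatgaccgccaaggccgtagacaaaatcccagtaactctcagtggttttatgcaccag

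The other leading transcripts overlapped between the sexes. Sox10-201 made up 87.0% to 91.4% of Sox10 TPM over the 6 pools, Nab1-201 84.8% to 91.2% of Nab1, Nab2-201 71.1% to 78.8% of Nab2, Id2-201 93.5% to 96.4% of Id2 and Yy1-201 74.9% to 94.0% of Yy1. Zeb2 was the most divided, with 30 annotated transcripts of which 23 had reads. Its leading form, Zeb2-212, made up 32.3%, 38.6% and 41.2% in females and 37.0%, 41.9% and 41.2% in males, and was lowest in female pool 1. Zeb2-202, with the same coding length of 1215 codons, made up 21.2% on average. Pou3f1, Sox2 and Olig1 had 1 transcript each.

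**Figure D5:**
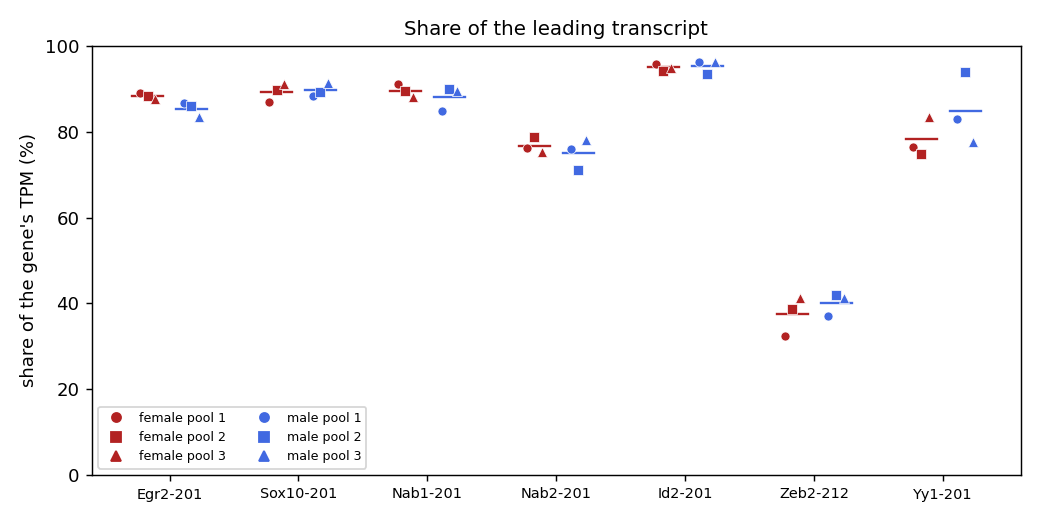
Share of the transcript with the highest mean TPM in the summed TPM of its gene, in percent, for 7 factors in female pools (red, left) and male pools (blue, right), with a line at the mean of each sex. Egr2-201 is at 87.5% to 88.9% in females and 83.4% to 86.8% in males, Zeb2-212 stays under 42%, and Yy1-201 has the widest range in males.

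The targets and partners of these factors were described by lists. Over all genes tested, 0.0613% were called and 6.11% had an unadjusted p under 0.05 in edgeR's quasi-likelihood test. Of 25 genes known as targets of EGR2 and SOX10, all were tested, 11 had a positive and 14 a negative log2 fold change, 0 were called, and the median was -0.0099. Mbp, another protein of compact myelin, was at 6106, 7333 and 7545 TPM in female pools, against 6829, 7006 and 7427 TPM in male pools. Female pool 1, with the highest Egr2, had the lowest Pmp22 and Mbp. Male pool 3, with the next highest Egr2, went the other way. It had the highest Pmp22, 12291 TPM, and only female pool 3 had more Mbp. The 2 targets with an unadjusted p under 0.05, which 6.11% of all genes tested had, were lipid-binding proteins. Pmp2 was at 391, 482 and 299 TPM in female pools, against 475, 644 and 539 TPM in male pools (log2 fold change -0.56 ± 0.17, SE; adjusted p = 0.64, edgeR), with overlap. Fabp7 was at 1.78, 2.33 and 2.14 TPM in female pools, against 3.06, 2.51 and 4.06 TPM in male pools (log2 fold change -0.66 ± 0.25, SE; adjusted p = 0.79, edgeR), without overlap.

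Of 56 other transcription regulators of Schwann cells, 48 were tested, 28 with a positive and 20 with a negative log2 fold change, 0 were called, 1 had an unadjusted p under 0.05 (6.11% of all genes tested) and the median was 0.021. The highest were Maf (115, 117 and 129 TPM in female pools, against 131, 144 and 126 TPM in male pools), Stat3 (115, 98.1 and 83.9 TPM in female pools, against 103, 90.8 and 91.0 TPM in male pools) and Junb. Id3, a relative of Id2, was at 84.3, 71.2 and 71.2 TPM in female pools, against 61.1, 60.1 and 69.0 TPM in male pools, without overlap, and had an unadjusted p of 0.032 and an adjusted p of 0.80 in edgeR's quasi-likelihood test. Srebf1, which drives lipid synthesis genes, followed with an adjusted p of 0.84 in the same test.

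Of 29 ligands, receptors and kinases that act upstream of the factors, all were tested, 16 had a positive and 13 a negative log2 fold change. In edgeR's quasi-likelihood test 0 were called (0.0613% of all genes tested) and 0 had an unadjusted p under 0.05 (6.11% of all). The median log2 fold change was 0.0012. Itga6 and Itgb1, which form a laminin receptor, were at 319 to 359 and 305 to 331 TPM, and Mapk3, the kinase ERK1, at 310 to 369 TPM. Bace1, a protease that processes neuregulin, had an adjusted p of 0.83 in edgeR's quasi-likelihood test. Of 10 genes that ZEB2 represses or SOX2 raises in immature Schwann cells, 2 had a positive and 8 a negative log2 fold change. In the same test 0 were called (0.0613% of all genes tested) and 0 had an unadjusted p under 0.05 (6.11% of all). The median log2 fold change was -0.051. Fn1 was at 535, 477 and 397 TPM in female pools, against 456, 550 and 488 TPM in male pools, Cd44 at 123 to 211 TPM and Cdh19 at 87.5 to 98.7 TPM over all pools. L1cam and Sema4f had the smallest p (adjusted p = 0.83 and 0.87, edgeR's quasi-likelihood test).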

How the data were processed

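Left sciatic nerves of sham-operated mice were profiled as 6 samples, pools of 2 mice, 3 per sex. The authors made stranded poly-A libraries, sequenced paired ends, trimmed reads with Trimmomatic 0.39 and quantified transcripts with Salmon (1.5.2 in the submitters' processing notes; the study's resource list gives another version, and its methods give another GENCODE release than the M27 of the tables). Each deposited estimated count is the number of read pairs Salmon assigned to a transcript and need not be whole. The deposited TPM is that count divided by effective length and scaled to the same total in every sample.

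Estimated counts and TPM of 140789 transcripts were summed to 54309 genes; counts were then rounded. Replicates of a sex differed beyond counting noise, so none was counted as a duplicate. Genes with at least 0.5 CPM in at least 3 samples were tested with the quasi-likelihood test of edgeR 4.0.16 (robust, TMM scaling, Benjamini-Hochberg over all genes, threshold 0.1, as in the study). No covariate was used. Ratios and transcript shares were compared with two-sided exact permutation tests over samples and correlations with exact permutations of pairings. With 3 pools per sex no permutation p between the sexes can fall under 0.1.

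The members, lists, ratios and alternatives were chosen with earlier results of these data known. The text names all 10 factors, of each pathway list the 3 highest by mean TPM, the 2 with the smallest p and any called gene, of each marker list described up to 2 of the highest by TPM, and the 3 genes most like Egr2 and Sox2; others are marked. A few genes under this rule are not reported here but are included in the counts of their lists. The edgeR step was tested on simulated data. Alternatives were DESeq2 1.42.0, limma-voom 3.58.1 with sample weights, RLE factors, effective length offsets, other filters and thresholds, protein-coding transcripts only, TPM + 1, TMM-scaled CPM, a replicate block and leaving out each replicate. R 4.3.3, Python 3.11.15, pandas 2.3.3, NumPy 2.4.6, SciPy 1.17.1 and matplotlib 3.10.9 were used. Gene positions came from GENCODE M39 (GRCm39), and promoter windows from RefSeq (GRCm38.p6) were placed on GRCm39 by exact sequence match.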

Additional observations from a re-analysis of the deposited data

How the results depend on the processing

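In every fit 0 of the factors were called between the sexes. Under the alternatives the sign changed for 10 of 126 fold changes, 14 of 81 ratio differences, 6 of 56 differences in leading share and 1 of 12 correlations. Over 15 fits the log2 fold change of Sox2 was 0.16 to 0.29, that of Zeb2 -0.19 to -0.081, that of Sox10 0.090 to 0.31 and that of Pou3f1 -0.28 to -0.045. Leaving out 1 replicate, Egr2 ran from -0.081 (without female replicate 1) to 0.33, Nab2 from -0.036 (without female replicate 1) to 0.096, Id2 from -0.080 (without female replicate 1) to 0.30 and Yy1 from -0.051 to 0.035 (without male replicate 2). Nab2 was at -0.024 with limma-voom and at -0.023 with effective length offsets, which gave 0.071 for Yy1. The correlation of Egr2 with Pou3f1 was -0.42 on log2(TPM + 1). On that scale Egr2 had r = 0.48 with Sox10, 0.29 with Nab2, 0.26 with Sox2 and 0.91 with Id2. Sox10 had r = 0.66 with Sox2. In the same order, r on log2 TMM-scaled CPM was 0.69, 0.69, 0.42, 0.92 and 0.71. The log2 difference of Zeb2 over Sox2 was -0.42 in TMM-scaled CPM, and -0.32 to -0.18 with a female pool left out. Ratios without overlap between the sexes numbered 1 to 3 when 1 replicate was left out: 3 without female replicate 2 (Sox10 over Sox2 and Nab2 over Nab1 were added) and 2 without female replicate 1. Leading shares without overlap numbered 1 to 2, with 2 without female replicate 3 or male replicate 2. By CPM, which is not per length, 4 of the 10 factors kept their rank.

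Replicate numbers did not pair the pools: same-numbered female and male pools correlated at -0.19, -0.16 and -0.13 in their deviations from the group means, and no pool correlated best with its own number. With a replicate block edgeR called 5 genes, against 10 without it, and 0 of the factors. Depth limits Olig1, Sox2 and Pou3f1 most.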
